A study of Homo sapiens with 4 samples.

Results

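Excision and mismatch repair genes were examined in ACHN, a long-established cell line from a human renal cell carcinoma, after silencing of PRR11. The 46 genes were taken by name from the 36359 genes of the deposited count table: 24 act in nucleotide excision repair, 16 in base excision repair and 6 in mismatch repair. Replication polymerases, the clamp loader, the single-strand binding protein and the sliding clamp were not among them and are described as a list of their own. All 46 genes had enough counts to be tested, with at least 202 counts in every library.

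RNA-seq was performed on 4 libraries, 2 from cells transfected with a control siRNA (siNC) and 2 from cells transfected with siPRR11, and the series was designed to look for what acts downstream of PRR11 in renal cell carcinoma. All 4 libraries came from ACHN cells without a further treatment in the labels, and the siRNAs were delivered with a Lipofectamine reagent. Which siPRR11 duplex each library received and how long after transfection the RNA was taken are not given in the sources used here. A single cell line limits the groups as a model, and nothing says whether the libraries of a group came from separate cultures, so p-values measure the spread between these libraries, which may be technical.

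Counted reads ranged from 59003839 to 92612749 per library. PRR11, the targeted gene, stood at 41.2 and 40.4 CPM (reads of a gene relative to the TMM-adjusted total of its library) in the siNC libraries and at 15.3 and 14.01 CPM in the siPRR11 libraries, a log2 fold change of -1.48 (SE 0.0909, edgeR's quasi-likelihood adjusted p = 3.35e-06). Of the renal epithelial markers, PAX8 was between 252.5 and 374.6 CPM and KRT8 between 1169 and 1498 CPM over the 4 libraries. PAX2 and KRT18 were also present, and CDH6 was at or below 0.0636 CPM. KRT18 was higher in siPRR11 (log2 fold change 0.36, edgeR adjusted p = 0.00886), and for PAX8, PAX2 and KRT8 the edgeR adjusted p was at least 0.269. The markers of leukocytes (PTPRC, CD3E) and endothelium (PECAM1, VWF) did not exceed 0.318 CPM, and ALB, a hepatocyte marker, was between 0.897 and 1.13 CPM. Mitochondrial genes took 4.96% to 5.58% of the counts, with both siPRR11 libraries at the upper end.

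Nucleotide excision repair removes bulky lesions such as those made by ultraviolet light. A damage sensor, or a stalled RNA polymerase, brings in the TFIIH helicase complex, which opens the DNA so that an endonuclease can cut on each side of the lesion. Base excision repair removes small lesions, among them oxidized bases: a DNA glycosylase lifts out the altered base, an AP endonuclease cuts the backbone at the resulting abasic site, and a polymerase and ligase fill and seal the gap. Mismatch repair corrects replication errors through MutS sensors, MutL partners and a nuclease that removes the new strand around the error.

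The repair genes changed in both directions. DDB2, ERCC5, XRCC1, EXO1, CUL4B, XPC, TDG and GTF2H1 rose after PRR11 silencing, by 1.26-fold to 1.71-fold. NEIL2, CETN2, MNAT1, ERCC1, NTHL1 and MSH3 fell, to between 53.1% and 81.1% of siNC. The largest change in either direction was the fall of NEIL2, a glycosylase of base excision repair. The median log2 fold change of the 46 genes was 0.0064, against 0.0022 for all 21630 genes tested.

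Of the 46 genes, 14 were called at an adjusted p-value below 0.05, 8 higher and 6 lower (30.4%). Among all genes tested 16.7% were called, 7.61% higher and 9.14% lower. All 46 had a log2 CPM of 1 or more on average, a floor chosen after the values were seen, and of all genes above this floor 23.1% were called, 10.4% higher and 12.8% lower. Among the 8 members called higher and the 6 called lower, the siNC and siPRR11 libraries did not overlap, and 18 further members also had no overlap without being called. These 32 members were 69.6% of the 46, and the groups were likewise apart in 58.4% of all genes tested and in 64.9% of those above the same floor. An exact permutation test of 2 libraries against 2 cannot give a p-value below 0.333, so single genes rest on edgeR's test across all genes. In bulk RNA, fewer cells with a transcript and less of it per cell cannot be told apart. Without the first siPRR11 library the count of called members was 9, and without any 1 of the other libraries it was between 12 and 18.

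**Figure D1:**
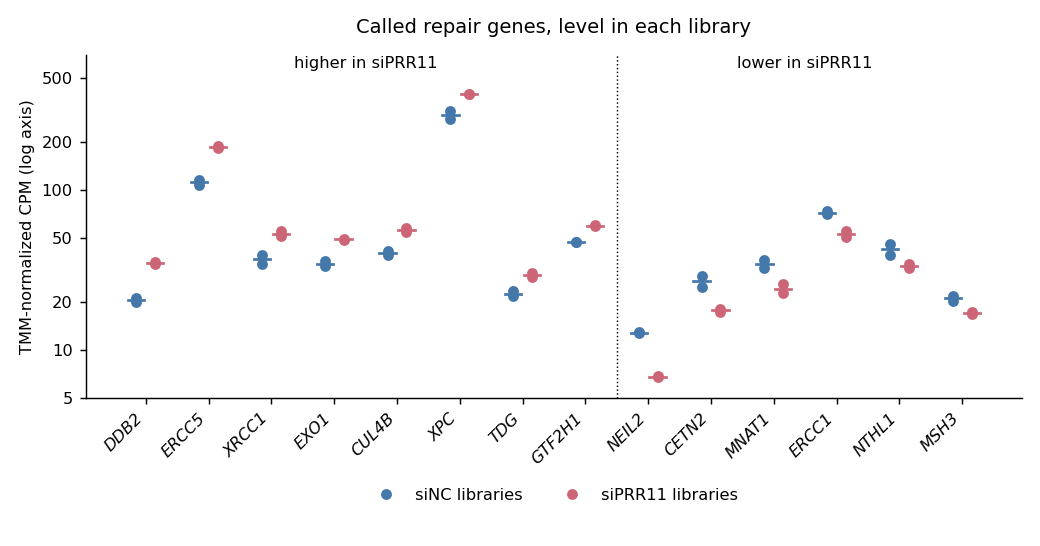
TMM-normalized CPM (log axis) of the 14 called repair genes in each of the 4 libraries, with a short line at each group mean. In all 14 genes the 2 siNC libraries and the 2 siPRR11 libraries do not overlap.

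**Figure D2:**
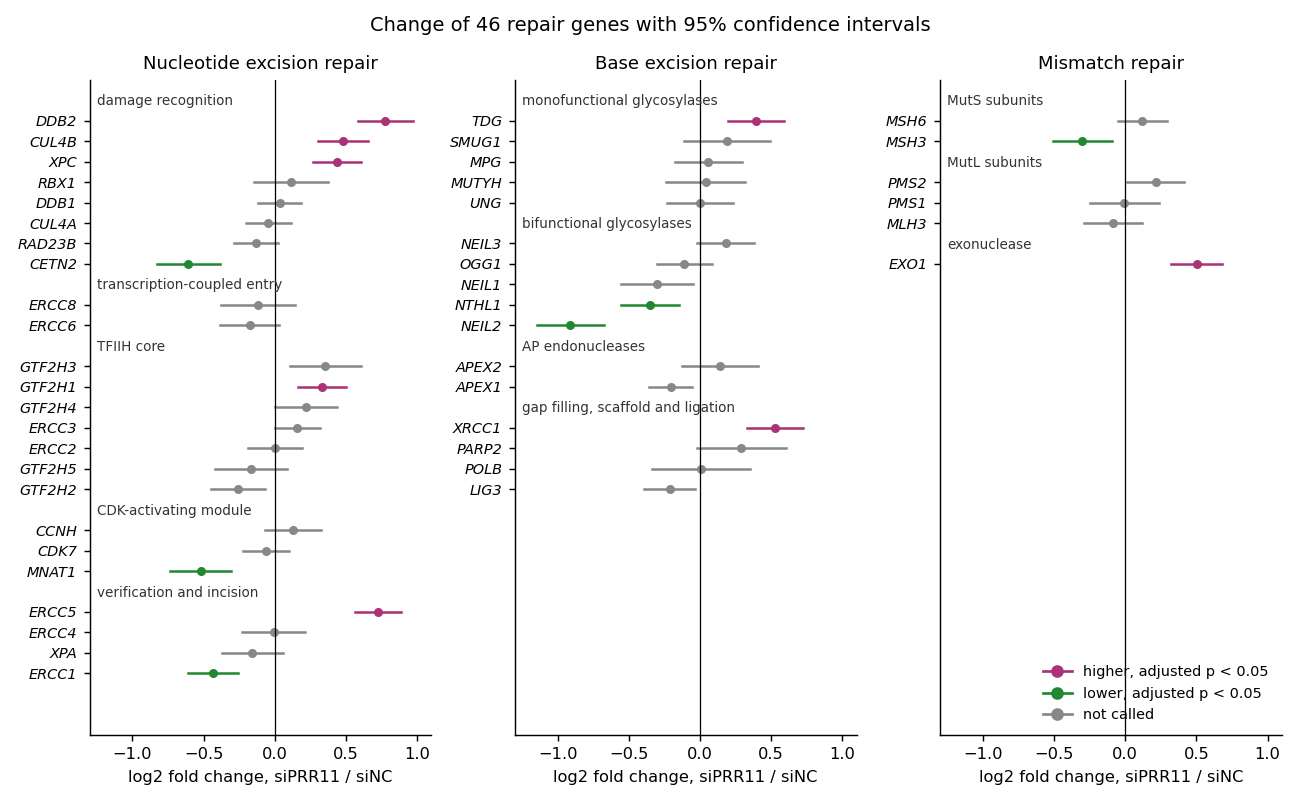
Log2 fold change of siPRR11 over siNC for the 46 repair genes in 3 panels, one for each pathway, grouped by role, with 95% confidence intervals from edgeR's quasi-likelihood fit. NEIL2 (-0.91) is farthest to the left and DDB2 (0.78) farthest to the right, and most intervals include 0.

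Levels per transcript length differed widely before any silencing. In siNC, RPKM (the deposited level per library size and per length of exon) ranged from 0.855 for POLB, the gap-filling polymerase of base excision repair, to 235.9 for APEX1, the main AP endonuclease, with a median of 7.23 over the 46 genes. XPC at 60.4 RPKM, RAD23B at 35.9 RPKM, CDK7 at 34.6 RPKM and MSH6 at 26.4 RPKM came next. APEX1 stood above all others in both libraries, and the next neighbours RAD23B (36.4 and 35.3 RPKM) and CDK7 (35.1 and 34.2 RPKM) lay close together without overlap. The ranges were 1.23 to 60.4 RPKM for nucleotide excision repair, 0.855 to 235.9 RPKM for base excision repair and 2.21 to 26.4 RPKM for mismatch repair.

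**Figure D3:**
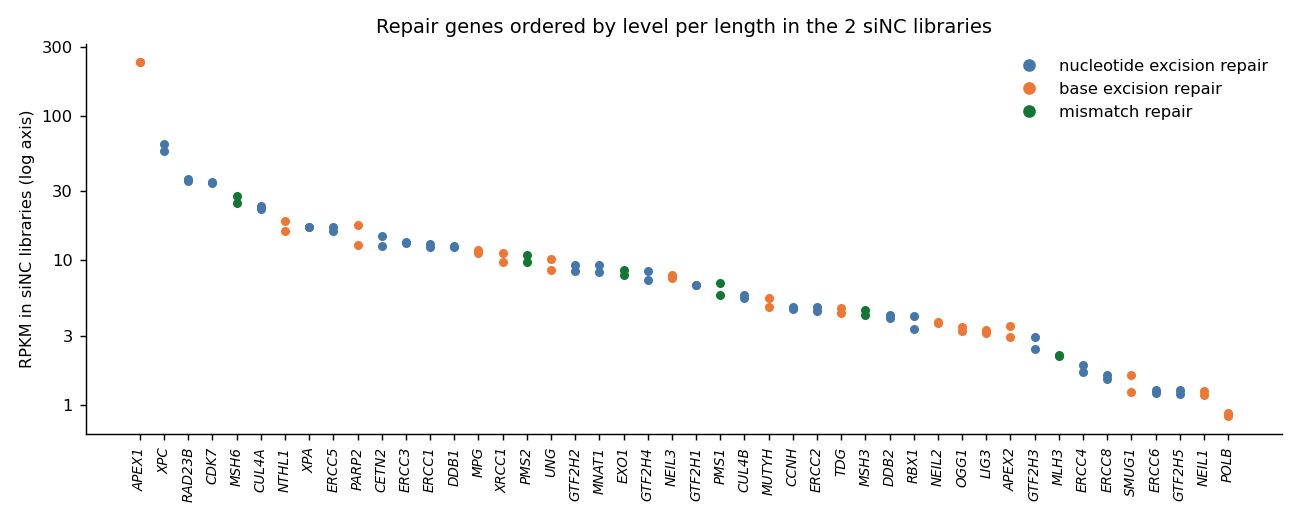
Deposited RPKM (log axis) of the 46 repair genes in the 2 siNC libraries, ordered by their mean and colored by pathway. APEX1 is highest at 235.9 and POLB lowest at 0.855, and the 3 pathways are interleaved along the order.

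Promoter sequence was set beside the values for a pair of damage recognition genes that differed in direction. DDB2 rose and CETN2 fell, and both encode subunits of damage sensors. They are shown because the windows of both hold the CCAAT box, a common promoter element, in more than 1 copy. The sequences are from RefSeq (GRCh38.p14), 5′ to 3′ on the strand of the gene, upstream of the annotated start and outside annotated exons, with CCAAT or its reverse complement ATTGG in capitals. DDB2 is shown at chr11:47214204-47214453 (plus strand), with 3 matches, and CETN2 at chrX:152830778-152830966 (minus strand), with 5 matches. The CETN2 stretch also lies upstream of NSDHL, which starts 190 bases away on the opposite strand. NSDHL was not called (log2 fold change -0.01).
DDB2: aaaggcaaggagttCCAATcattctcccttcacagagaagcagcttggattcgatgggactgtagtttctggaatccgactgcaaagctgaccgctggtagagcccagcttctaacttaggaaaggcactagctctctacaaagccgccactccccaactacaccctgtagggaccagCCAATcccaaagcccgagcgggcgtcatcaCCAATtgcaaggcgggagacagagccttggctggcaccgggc
CETN2: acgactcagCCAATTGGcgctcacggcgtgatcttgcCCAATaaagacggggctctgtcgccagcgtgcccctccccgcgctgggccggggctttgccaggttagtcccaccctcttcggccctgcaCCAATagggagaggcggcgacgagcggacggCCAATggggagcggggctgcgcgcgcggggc

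Windows of 250 bases upstream of annotated starts were held for 43 of the 46 genes. NEIL2, POLB and SMUG1 had none. CCAAT, searched on both strands, was found in a window of 21 of the 43 genes (48.8%) and of 37.0% of 27305 genes in the same table. The GC box GGGCGG was found for 35 of 43 (81.4%) against 46.2%, and the E-box CACGTG for 11 of 43 (25.6%) against 7.73%. An E2F element (TTTCCCGC, TTTCGCGC, TTTGCCGC or TTTGGCGC) was found for 5 of 43 (11.6%) against 3.40%, and the CHR element TTTGAA for 7 of 43 (16.3%) against 16.1%. The decamer of the p53 response element was found for 0 of 43 against 6.80%, which says only that these letters are not in these windows. Matches were on both sides of the comparison: CCAAT was found for 4 of 8 genes that rose and 2 of the 5 genes that fell and had a window, and the GC box for 6 of 8 and 4 of 5. Some genes have several windows, and a gene was counted when any of them held a match. The 27305 genes were not limited to expressed genes, and the number of windows per gene was not matched. The shares of the members and of these genes are therefore not like for like, and their difference was not tested.

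In nucleotide excision repair, 5 of 24 genes rose and 3 fell, with a median log2 fold change of -0.0012. Of the 8 damage recognition genes, DDB2, CUL4B and XPC rose and CETN2 fell, which were 4 of the 8 calls of the pathway. Verification and incision, with 4 genes, held 2 calls. Among all genes tested 16.7% were called, and of those above the expression floor given earlier 23.1%. The groups within the pathway were not tested against these shares or against each other.

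DDB2, the subunit that gives the UV-DDB complex its hold on ultraviolet lesions (chromosome 11, 47214465 to 47239240, plus strand), was at 21.0 and 19.8 CPM in siNC and at 35.7 and 34.2 CPM in siPRR11. Its log2 fold change of 0.78 (SE 0.0879, edgeR adjusted p = 0.000185) was the largest rise among the 46 genes. DDB1, which joins DDB2 to the CUL4 ubiquitin ligases, was at 175.5 and 177.7 CPM against 177.7 and 183.8 CPM (log2 fold change 0.03, SE 0.0705), so the ratio of DDB2 to DDB1 in RPKM went from a mean of 0.329 in siNC to 0.551 in siPRR11.

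XPC, the sensor that starts global-genome repair (chromosome 3, 14145147 to 14178783, minus strand), had the highest RPKM of its pathway and rose from 310.7 and 278.7 CPM to 399.4 and 399.0 CPM (log2 fold change 0.44, SE 0.0761, edgeR adjusted p = 0.00245). Of its exon bases, 30.4% are shared with genes on the other strand. Among them are AC093495.4 and LSM3, both higher in siPRR11 (log2 fold changes 0.54 and 0.84). How far reads of these genes enter the value of XPC was not tested. CETN2, the centrin that binds XPC and also acts at centrioles (chromosome X, 152826973 to 152830777, minus strand), was at 29.0 and 24.6 CPM in siNC and fell to 17.9 and 17.4 CPM (log2 fold change -0.61, SE 0.102, edgeR adjusted p = 0.00205). RAD23B, the other partner of XPC in the sensor, was at 170.7 and 165.8 CPM against 152.1 and 155.6 CPM and was not called. XPC and CETN2, partners in a single complex, thus passed the test in opposite directions, and their RPKM ratio within a library went from 4.30 and 4.55 to 8.97 and 9.24, or 2.06 times higher.

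CUL4B, a cullin scaffold of the ubiquitin ligase that DDB1 and DDB2 join (chromosome X, 120524609 to 120575794, minus strand), rose from 39.0 and 41.6 CPM to 57.6 and 54.7 CPM (log2 fold change 0.48, SE 0.0811, edgeR adjusted p = 0.00212). Its paralog CUL4A was at 181.2 and 190.5 CPM against 177.5 and 182.9 CPM, with no call and overlapping groups. The RPKM ratio of CUL4B to CUL4A was 0.243 in siNC and 0.349 in siPRR11. RBX1, the RING subunit of these ligases, was not called (log2 fold change 0.11, SE 0.119).

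Neither gene of transcription-coupled entry was called. ERCC6 had a log2 fold change of -0.18 and ERCC8 of -0.12, and both share exon bases with other genes (10.7% and 33.7% of their length).

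TFIIH opens the DNA around the lesion and also works in transcription initiation. Of its 7 core subunits, GTF2H1 rose and none fell. GTF2H1, the p62 subunit (chromosome 11, 18322295 to 18367044, plus strand), was at 47.5 and 47.4 CPM in siNC and 60.1 and 59.2 CPM in siPRR11 (log2 fold change 0.33, SE 0.0763, edgeR adjusted p = 0.0118). The libraries of each group lay close together, yet the call was lost without either siPRR11 library (edgeR adjusted p = 0.106 and 0.0784). GTF2H3, the p34 subunit and the uncalled member with the largest change, was at 11.9 and 9.98 CPM against 13.7 and 14.4 CPM (log2 fold change 0.35, SE 0.114, edgeR adjusted p = 0.0531). It passed the threshold in edgeR's exact test (adjusted p = 0.0333), without a filter (0.0296), with at least 10 counts in every library (0.0446) and without the first siNC library (0.00436), and its log2 fold change was between 0.23 and 0.49 without any 1 library. The helicases ERCC2 and ERCC3 had log2 fold changes of 0.0049 and 0.16 and were not called. GTF2H4 (0.22) shares 79.0% of its exon bases with VARS2, itself higher in siPRR11 (log2 fold change 0.37). GTF2H2 (-0.26) has near-identical copies in the genome. The counts of GTF2H4 and GTF2H2 are therefore uncertain. GTF2H5 stood at -0.17.

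The CDK-activating module of TFIIH phosphorylates RNA polymerase II and cell cycle kinases. MNAT1, its assembly factor (chromosome 14, 60734742 to 60969953, plus strand), fell from 36.6 and 32.6 CPM to 22.7 and 25.6 CPM (log2 fold change -0.52, SE 0.0981, edgeR adjusted p = 0.00407), and it missed the threshold in the limma fit on log2(RPKM + 1) (adjusted p = 0.0528). The kinase CDK7 was at 86.3 and 84.1 CPM against 79.4 and 83.8 CPM, and the cyclin CCNH at 22.5 and 21.9 CPM against 25.0 and 23.6 CPM, neither of them called. The RPKM ratio of MNAT1 to CDK7 went from 0.265 and 0.242 in siNC to 0.179 and 0.191 in siPRR11.

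Of the genes behind the cuts on each side of a lesion, ERCC5 rose, ERCC1 fell and ERCC4 was not called. ERCC5, which encodes XPG and cuts on the 3′ side (chromosome 13, 102844844 to 102876001, plus strand), rose from 115.4 and 108.1 CPM to 187.4 and 182.4 CPM (log2 fold change 0.73, SE 0.0736, edgeR adjusted p = 9.16e-05). ERCC1, the partner of the 5′ nuclease XPF (chromosome 19, 45407333 to 45478828, minus strand), fell from 73.4 and 70.4 CPM to 50.6 and 55.7 CPM (log2 fold change -0.43, SE 0.0810, edgeR adjusted p = 0.00370). The ratio of ERCC5 to ERCC1 in RPKM was 1.32 and 1.28 in siNC and 3.10 and 2.74 after silencing, which was the widest shift among the 14 pairs compared.

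ERCC4, which encodes XPF itself, was at 14.5 and 16.3 CPM against 15.5 and 15.1 CPM, and its 95% interval on the log2 scale ran from -0.23 to 0.21. XPA, which verifies the lesion, was not called (log2 fold change -0.16, SE 0.0994). The exons of ERCC5 share 41.8% of their bases with the readthrough gene BIVM-ERCC5 on the same strand, itself higher in siPRR11 (log2 fold change 0.59), and those of ERCC1 share 28.6% with CD3EAP on the other strand, itself lower (log2 fold change -0.45). How far such reads enter the values of ERCC5 and ERCC1 was not tested. The ERCC1 call was lost without the first siPRR11 library (edgeR adjusted p = 0.0516).

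**Figure D4:**
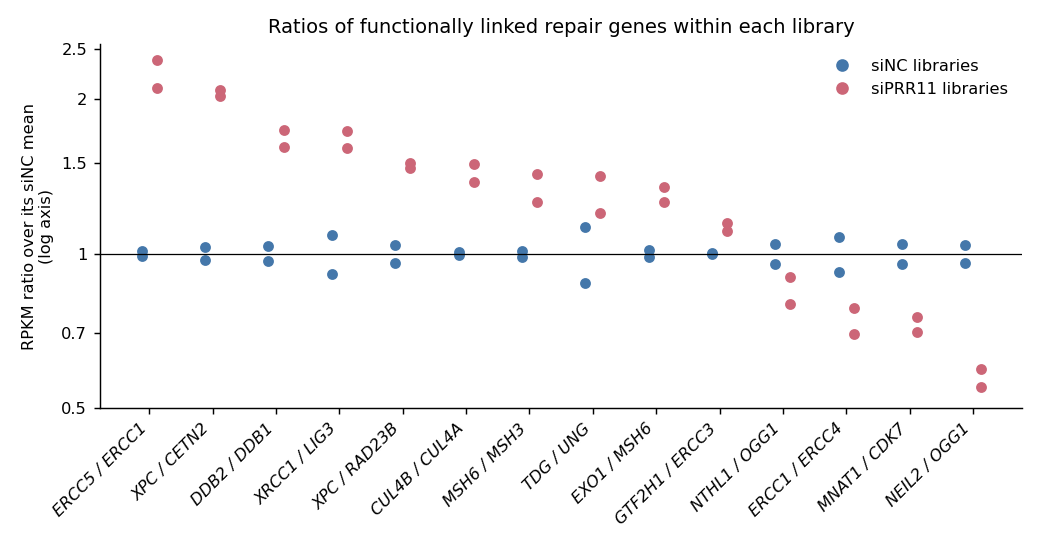
Ratio of the deposited RPKM of 14 pairs of functionally linked repair genes in each library, divided by the siNC mean of that ratio (log axis). The siPRR11 libraries lie farthest above 1 for ERCC5 over ERCC1 and XPC over CETN2, and farthest below 1 for NEIL2 over OGG1.

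These 14 pairs were chosen after the values of their members were seen, and the siNC and siPRR11 libraries were apart in each of them, so the ratios describe the calls in another form and were given no test.

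In base excision repair, 2 of 16 genes rose and 2 fell (25.0% called, median log2 fold change 0.02). Among all genes tested 16.7% were called, and of those above the expression floor given earlier 23.1%. Glycosylases, 5 monofunctional and 5 bifunctional of the 16 genes, held 3 of the 4 calls. TDG was higher, NEIL2 and NTHL1 were lower, and the scaffold XRCC1 was the other rise. The count was 2 without the first siPRR11 library.

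Among the monofunctional glycosylases, which lift out a base and leave the backbone to be cut by another enzyme, TDG rose and the other four were not called. TDG removes thymine or uracil mispaired with guanine and also acts in active DNA demethylation (chromosome 12, 103965804 to 103988874, plus strand). It was at 23.2 and 21.6 CPM in siNC and 30.3 and 28.7 CPM in siPRR11 (log2 fold change 0.39, SE 0.0903, edgeR adjusted p = 0.0113), and its call was lost without the first siPRR11 library (edgeR adjusted p = 0.111). UNG, the main uracil glycosylase, was at 22.3 and 26.6 CPM against 23.0 and 25.7 CPM, with a 95% interval from -0.23 to 0.23 on the log2 scale. SMUG1, MPG and MUTYH had log2 fold changes between 0.04 and 0.19, and MPG and MUTYH share 27.3% and 14.1% of their exon bases with other genes.

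The bifunctional glycosylases remove oxidized bases and can also nick the backbone. Of these 5, NEIL2 and NTHL1 fell and none rose. NEIL2 was at 12.7 and 12.9 CPM in siNC and at 6.73 and 6.84 CPM in siPRR11, a fall to 53.1% (log2 fold change -0.91, SE 0.108, edgeR adjusted p = 0.000246), with the libraries of each group close together. NTHL1 (chromosome 16, 2039815 to 2047866, minus strand) was at 46.2 and 39.4 CPM against 32.7 and 34.5 CPM (log2 fold change -0.35, SE 0.0944, edgeR adjusted p = 0.0247). Its call was lost without the first siNC library and without either siPRR11 library (edgeR adjusted p between 0.0520 and 0.161) and in both limma fits (adjusted p = 0.113 and 0.104). Of its exon bases, 16.5% are shared with TSC2 on the other strand, which was not called (log2 fold change 0.09).

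OGG1, which removes 8-oxoguanine, was at 30.9 and 28.9 CPM against 28.6 and 26.9 CPM (log2 fold change -0.11, 95% interval -0.30 to 0.08). NEIL1 had a log2 fold change of -0.30 (edgeR adjusted p = 0.101) and NEIL3, a member expressed in dividing cells, of 0.18 (edgeR adjusted p = 0.208). OGG1 and NEIL1 share 29.0% and 30.5% of their exon bases with other genes. The RPKM ratio of NEIL2 to OGG1 went from 1.06 and 1.16 in siNC to 0.611 and 0.660 in siPRR11.

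The AP endonucleases were not called. APEX1, the most abundant member, was at 452.9 and 451.6 CPM in siNC and 394.9 and 388.9 CPM in siPRR11, and although its groups were apart the difference did not pass the threshold (log2 fold change -0.21, SE 0.0688, edgeR adjusted p = 0.0611). In DESeq2 it did (adjusted p = 0.0383). APEX2 stood at 0.14 (SE 0.122).

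XRCC1, the scaffold that holds the gap-filling and ligation enzymes together (chromosome 19, 43543040 to 43580473, minus strand), rose from 39.3 and 34.5 CPM to 55.3 and 51.2 CPM (log2 fold change 0.53, SE 0.0900, edgeR adjusted p = 0.00219). Other genes cover 23.97% of its exon bases, among them L34079.4, whose log2 fold change was 0.65. LIG3, the ligase bound to XRCC1, was at 41.3 and 43.4 CPM against 36.5 in both siPRR11 libraries and was not called (log2 fold change -0.21, SE 0.0810, edgeR adjusted p = 0.0962). Of its exon bases 30.5% are shared, with RFFL, itself lower in siPRR11 (log2 fold change -0.36), and CCT6B, not called (0.67). The RPKM ratio of XRCC1 to LIG3 was 3.26 in siNC and 5.45 in siPRR11. PARP2, a sensor of strand breaks, was at 73.5 and 53.1 CPM in siNC and 87.6 and 67.4 CPM in siPRR11, so its groups overlapped (log2 fold change 0.29, edgeR adjusted p = 0.200). It was called without a filter (adjusted p = 0.0106), without the first siNC library (0.000125) and without the second siPRR11 library (0.00429), and its log2 fold change ran from 0.073 to 0.54 as 1 library was left out. POLB, the lowest of the 46 genes, was at 3.66 and 3.48 CPM against 3.28 and 3.92 CPM.

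In mismatch repair, EXO1 rose and MSH3 fell among 6 genes (median log2 fold change 0.06). EXO1, the exonuclease that removes the strand carrying the error (chromosome 1, 241847967 to 241895148, plus strand), went from 33.3 and 36.0 CPM to 48.6 and 49.4 CPM (log2 fold change 0.50, SE 0.0825, edgeR adjusted p = 0.00178). MSH3, the MutS subunit for larger insertion and deletion loops (chromosome 5, 80654648 to 80876460, plus strand), went from 20.2 and 21.8 CPM to 17.4 and 16.7 CPM (log2 fold change -0.30, SE 0.0946, edgeR adjusted p = 0.0479). The MSH3 call had the highest adjusted p of the 14, and it was lost without the second siNC library and without either siPRR11 library (edgeR adjusted p between 0.122 and 0.299), in DESeq2 (adjusted p = 0.0538), without a filter on low counts (adjusted p = 0.0510) and in both limma fits (adjusted p = 0.161 and 0.148), which leaves 1 called gene, EXO1, in each of those settings.

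MSH6, the MutS subunit for base mismatches, was at 279.4 and 310.8 CPM against 307.4 and 334.3 CPM, with overlapping groups and no call, and 16.2% of its exon bases are shared with FBXO11. The RPKM ratio of MSH6 to MSH3 was 5.93 and 6.10 in siNC and 7.59 and 8.59 in siPRR11. None of the MutL subunits MLH3, PMS1 and PMS2 was called, with log2 fold changes from -0.08 to 0.22, and PMS2 has near-identical copies that make its counts uncertain.

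The 3 pathways were called at shares of 33.3% of nucleotide excision repair, 25.0% of base excision repair and 33.3% of mismatch repair, each with genes in both directions. Of all genes above the expression floor used earlier, 23.1% were called. The shares were not tested against each other or against this background. Leaving out the 15 members that share at least 10% of their exon bases with another gene, and GTF2H2 and PMS2, left 9 called of 29, 5 higher and 4 lower. The same exclusion was not applied to all genes, so this count has no like-for-like background.

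Some factors serve both these pathways and DNA replication. They include the sliding clamp, the clamp loader, the single-strand binding protein, polymerases, a flap endonuclease and a nick-sealing ligase. Of 19 such genes, 11 rose and 1 fell (63.2% called), with a median log2 fold change of 0.30. Among all genes tested 16.7% were called, and of those above the expression floor 23.1%. RFC5, a clamp loader subunit, went from 16.9 and 17.7 CPM to 26.1 and 24.3 CPM (log2 fold change 0.54), POLE, the leading-strand polymerase, from 78.8 and 94.9 CPM to 119.2 and 124.0 CPM (0.49), and PCNA, the sliding clamp, from 44.6 and 48.3 CPM to 59.6 and 64.3 CPM (0.42). A further 16 genes of excision repair and damage reversal held 2 rises (12.5% called), MSH5 (log2 fold change 0.48) and MBD4 (0.34). None of them fell, and their median was -0.02. The shares of these lists were not tested against all genes.

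Markers of the cell cycle and of p53 moved in the same comparison. Of 18 S phase genes, 8 rose and 1 fell (median log2 fold change 0.19), with summed levels of 1483 and 1528 CPM in siNC and 1780 and 1817 CPM in siPRR11, led by RRM2 (1.18), DTL (0.91) and TYMS (0.75). Of 15 G2/M genes, 9 rose and none fell (median 0.32), from 1953 and 1880 CPM to 2549 and 2371 CPM in sum, led by TOP2A (0.63), AURKB (0.42) and CENPF (0.38). Of 18 p53 target genes other than the 46, 10 rose and none fell (median 0.54), from 629.0 and 697.2 CPM to 960.6 and 934.9 CPM in sum, led by CDKN1A (1.07), BTG2 (0.86) and SESN1 (0.85). Among all genes tested 7.61% were called higher and 9.14% lower, and of those above the expression floor 10.4% and 12.8%. The S phase, G2/M and p53 lists were not tested against these shares. EXO1 is known to be expressed in S phase, and DDB2 and XPC as p53 targets. The part of either program in their rise was not tested.

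Several repair genes start beside another gene on the opposite strand. Among the genes reported here, 17 of the 46 have such a head-to-head neighbour, with annotated 5′ ends at most 1000 bases apart. Of these 17, 5 were called, against 14 of all 46 (30.4%). Of the 17 neighbours, 2 were called, those of XPC and GTF2H1. Among all genes tested 16.7% were called, and the shares were not tested. XPC and LSM3, an RNA-processing gene whose 5′ part overlaps that of XPC, both rose: LSM3 went from 234.3 and 212.6 CPM to 400.9 and 397.5 CPM (log2 fold change 0.84, SE 0.0751). GTF2H1 and HPS5, a gene of lysosome-related organelles 97 bases away, both rose as well (HPS5 log2 fold change 0.50, SE 0.0993).

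For CETN2 and NSDHL, NTHL1 and TSC2, and TDG and C12orf73, the repair gene was called and the neighbour was not (neighbour log2 fold changes of -0.01, 0.09 and 0.09). The neighbours are named after their values were seen.

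A short stretch upstream of the RefSeq start of GTF2H1 is shown for the pair that starts closest together of the 2 that rose. It lies in an exon of a longer GTF2H1 transcript (chr11:18322537-18322566, plus strand), not between the 5′ ends of GTF2H1 and HPS5. It is taken from RefSeq (GRCh38.p14), 5′ to 3′, and carries the E-box CACGTG in capitals, 1 of 2 matches in the window.
GTF2H1: ccgccttgctacttccggtCACGTGccctc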

How the data were processed

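The authors prepared stranded mRNA libraries, sequenced them on a DNBSEQ-T7, removed adaptors and poor reads, mapped the rest to GRCh38 by STAR and assigned reads to genes by featureCounts. Per the labels' processing notes, Trimmomatic 0.36 and Subread 1.5.1 were used. The authors deposited raw counts per gene and RPKM values of the same genes, and all value columns were used. Which annotation release was used, and whether strand entered the counting, is not given in the sources used here.

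The counts were normalized by TMM, filtered by filterByExpr and compared by edgeR's quasi-likelihood test (edgeR 4.0.16, R 4.3.3) with condition as the only term. P-values were adjusted by Benjamini-Hochberg over 21630 genes and called below 0.05. EdgeR's quasi-likelihood test was run on simulated counts, also with a replicate block and without the first siNC library. So were edgeR's exact test, DESeq2 and limma, the last on CPM rather than RPKM. The other settings below were not simulated, and the draws held no effect shared by replicate number. Alternatives were RLE factors, edgeR's exact test, DESeq2 1.42.0, other filters, the replicate number as a block, limma 3.58.1 on log2(RPKM + 1) or log2(RPKM + 0.1), each library left out and the exclusion of genes with shared exons or copies. Depth was high for all members, so precision rested less on counting than on the spread between libraries. With only 2 libraries per group, edgeR's fit draws the spread of each gene toward a trend over all genes tested.

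The members and all lists were chosen with earlier results of these data known. Every called member is named. Of those not called, the one with the largest change and those made uncertain by other genes' exons or copies are named by rule, and the rest within their group. Up to 3 called genes of each other list are named. Results for some genes under this rule and for some neighbouring genes are not reported here.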

Additional observations from a re-analysis of the deposited data

How the results depend on the processing

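DDB2, ERCC5, XPC, CUL4B, EXO1, XRCC1, CETN2 and NEIL2 were called without any 1 of the 4 libraries and under all 8 other fits. The total of 14 called members was 14 with RLE factors and DESeq2, 15 with edgeR's exact test and with at least 10 counts in every library, 17 without a filter, 11 and 12 with limma on log2(RPKM + 1) and log2(RPKM + 0.1), 21 at an unadjusted p under 0.05, and 9 without members with shared exons or copies. Limma gave 8 higher with 3 and 4 lower, against 8 and 6. Without 1 library it was 9 to 18, with 6 to 10 for nucleotide excision repair, 2 to 5 for base excision repair and 1 to 3 for mismatch repair. Leaving out shared exons or copies gave 5 for nucleotide and 2 for base excision repair, and an unadjusted p gave 7 for base excision repair. Mismatch repair had 1 with DESeq2, without a filter and with either limma fit.

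The replicate numbers are shared by the groups, but the labels tie them to no common batch. Deviations of same-numbered libraries had a correlation of 0.328 over genes. With the replicate block 23 members were called, 8 of them in base excision repair, with ERCC3, GTF2H2, GTF2H3, GTF2H4, NEIL1, APEX1, LIG3, PARP2 and PMS2 added, and 6988 of all genes against 3622. The count over all genes was 1775 and 1878 with limma, 6553 at an unadjusted p, and 2172 and 2393 without the first or second siPRR11 library. The causes were not tested.

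Over single members and settings, 482 values kept their direction and side of the threshold, 23 gained a call, 17 lost it and 30 changed sign, the last all for members that were not called. With at least 10 counts and in the limma fits with 1 and 0.1, the log2 fold change was 0.0012, 0.0258 and 0.0387 for ERCC4, 0.0012, 0.0363 and 0.0412 for PMS1 and 0.0073, 0.0433 and 0.0477 for UNG. UNG was also 0.0004 with RLE and DESeq2, 0.0003 without a filter and 0.001 with the replicate block. CUL4A was 0.0032 and 0.0033 with limma, and POLB -0.0003 with the replicate block. Without 1 library the lowest and highest values were -0.049 and 0.0551 for ERCC2, -0.0943 and 0.0743 for ERCC4, -0.0299 and 0.2727 for RBX1, -0.141 and 0.127 for PMS1, -0.1277 and 0.1257 for UNG, -0.1638 and 0.2214 for MUTYH, -0.1249 and 0.1337 for POLB and -0.0787 and 0.188 for MPG.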

Other observations

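Summed over their group, damage recognition genes stood at 940.1 and 909.2 CPM in siNC and 1031 and 1040 CPM in siPRR11, and verification and incision genes at 235.1 and 226.6 CPM against 279.5 and 284.4 CPM. Bifunctional glycosylases stood at 121.3 and 113.3 CPM against 102.5 and 100.3 CPM, and AP endonucleases at 464.4 and 461.3 CPM against 407.4 and 399.8 CPM. The MutL subunits overlapped, at 100.4 and 90.04 CPM against 107.2 and 94.2 CPM. These sums weigh abundant genes most, so XPC and APEX1 set much of theirs, and they were given no test.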
